A study of Mus musculus with 15 samples.

Results

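The 10 fibroblast marker genes Dcn, Lum, Dpt, Fbln1, Postn, Pdgfra, Pdgfrb, Pdpn, Fap and Grem1 are described here in bulk RNA sequencing of mouse gut and of gut organoids. They were taken by symbol from a list of genes that mark fibroblasts, and all 10 were found once in each deposited table, out of 45905 genes. The series asks what loss of Jup, the gene for the junction protein plakoglobin, does in mouse intestinal epithelium at rest and in colitis caused by dextran sodium sulfate, a detergent-like sugar polymer that injures the colon lining. It holds 15 libraries of poly(A) RNA, 3 per group. The gut groups are PG_KO, with the codes T47, T48 and T56, and ctr, with the codes T50, T51 and T52, and each library has its own code.

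The organoid groups are Tamoxifen, titled iVilCre ERT2JUPfl/fl and coded T41, DMSO, titled JUPfl/fl and coded T75, and nativ, also titled JUPfl/fl and coded T75. DMSO is a solvent often used for tamoxifen, and nativ is used here as a group name without further meaning. The floxed Jup allele is thus shared by all titles of the series, and the Cre recombinase under the villin promoter is active in intestinal epithelium and not in fibroblasts. Each organoid group carries 1 code, so Cre, tamoxifen and the code cannot be told apart, and how far 2 codes differ by themselves is not covered by any p-value. In gut the titles go against the descriptions: the PG_KO libraries are titled DSS colitis JUPfl/fl and the ctr libraries iVilCre ERT2JUPfl/fl. The descriptions were followed. Jup was lower in PG_KO than in ctr gut (values below), as the descriptions have it and unlike the genotypes in the titles. If either gut group had colitis, an effect of colitis cannot be told apart from one of genotype. Neither the gut segment and its layers nor the ages of the mice are given, and whether replicates came from separate animals or cultures is not stated, so that p-values measure only the spread between these samples.

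Fibroblasts of the gut wall lie under the epithelium, around the crypts and along the vessels and muscle. They lay down the collagens and proteoglycans of the matrix, answer platelet-derived growth factors through the receptors encoded by Pdgfra and Pdgfrb, and make the Wnt and bone morphogenetic protein (BMP) signals and antagonists that set where epithelial stem cells lie. Organoids are epithelial cultures grown in a gel, without gut wall, and serve here as a background for genes of the wall.

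Library totals lay between 23194385 and 29257641 reads in gut and between 25185053 and 30744563 reads in organoids, so that 3 reads corresponded to between 0.0976 and 0.129 CPM (reads scaled to a common library total). Jup stood at 75.2, 82.8 and 80.3 CPM in PG_KO gut, against 302, 375 and 495 CPM in ctr gut, without overlap. In the edgeR quasi-likelihood fit its log2 change was −2.29 (SE 0.23, Benjamini-Hochberg adjusted p = 0.163), which missed the threshold of 0.05. It passed with DESeq2 (adjusted p = 2.295e-12), without a low-count filter (adjusted p = 0.0289, edgeR) and without ctr replicate 3 (adjusted p = 0.0329, edgeR). In organoids Jup averaged 70.3 ± 1.2 CPM in Tamoxifen, 384 ± 27.8 CPM in DMSO and 352 ± 67.2 CPM in nativ (SD, n = 3 each). Gut libraries varied widely: among the gut libraries, ctr replicate 1 had the highest value of every one of the 10 fibroblast genes, and PG_KO replicate 3 had the lowest value of 6 of them. Results are therefore also given without these libraries. Both were picked by their values of these same genes, so an upward shift of the changes without them is built in and is no independent result. In bulk RNA, fewer cells of a type and less RNA per cell cannot be told apart.

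Of the matrix proteins, Dcn encodes decorin, a small leucine-rich proteoglycan that coats collagen fibrils and binds TGF-beta, and lies on chromosome 10 from 97479500 to 97518163 (GRCm38.p6, as all gene positions here). It had 424, 375 and 120 CPM in PG_KO replicates 1, 2 and 3, against 948, 510.5 and 157 CPM in ctr replicates 1, 2 and 3. Both replicates numbered 3 were low and the groups overlapped. Lum encodes lumican, a proteoglycan of the same family that spaces collagen fibrils, on chromosome 10 from 97565501 to 97572703. It had 35.2, 21.0 and 17.8 CPM in PG_KO, against 79.7, 38.3 and 11.2 CPM in ctr, and the lowest library was ctr replicate 3, below all 3 PG_KO libraries.

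Dpt encodes dermatopontin, which binds decorin and helps collagen fibrils form, on chromosome 1 from 164796663 to 164824274. It had 33.1, 40.1 and 23.5 CPM in PG_KO, against 149.6, 88.9 and 23.3 CPM in ctr. All of PG_KO lay below ctr replicates 1 and 2, and ctr replicate 3 was just under the lowest PG_KO library. Fbln1 encodes fibulin-1, a glycoprotein of elastic fibres and basement membranes, on chromosome 15 from 85205949 to 85286294. It had 47.9, 46.2 and 40.7 CPM in PG_KO, against 169, 77.4 and 43.6 CPM in ctr. The PG_KO libraries lay close together, 1.18-fold between highest and lowest against 3.88-fold in ctr, and ctr replicate 3 fell inside their range. Postn encodes periostin, a matricellular protein (one that sits in the matrix and signals to cells) made by fibroblasts around crypts, on chromosome 3 from 54359267 to 54391041. It had 57.9, 87.7 and 115 CPM in PG_KO, against 326, 194 and 87.7 CPM in ctr. Its lowest library was PG_KO replicate 1, and PG_KO replicate 3, lowest for 6 other genes, was the highest PG_KO library here.

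Of the receptors, Pdgfra encodes the one that marks most gut fibroblasts and is highest in those just under the epithelium, and lies on chromosome 5 from 75151322 to 75198206. It had 36.8, 55.0 and 27.8 CPM in PG_KO, against 186, 102 and 52.1 CPM in ctr. Only PG_KO replicate 2 and ctr replicate 3 overlapped. Pdgfrb encodes the second receptor, shared by fibroblasts and the pericytes around small vessels, on chromosome 18 from 61045127 to 61085067. It had 25.5, 30.4 and 13.4 CPM in PG_KO, against 68.2, 44.9 and 18.4 CPM in ctr. Again ctr replicate 3 lay within the PG_KO range.

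Among the surface proteins, Fap encodes fibroblast activation protein, a serine protease of activated fibroblasts, on chromosome 2 from 62500936 to 62575509. It had 0.881, 0.792 and 0.923 CPM in PG_KO, against 5.41, 1.77 and 1.45 CPM in ctr, on 20 to 27 reads per PG_KO library and 38 to 151 per ctr library. It was the only member whose groups did not overlap, which 18.6% of all tested genes did in either direction and 8.67% with PG_KO lower. Pdpn encodes podoplanin, a mucin-like surface glycoprotein of stromal cells and lymphatic endothelium, on chromosome 4 from 143267409 to 143299564. It had 39.4, 32.5 and 6.67 CPM in PG_KO, against 59.9, 25.0 and 13.9 CPM in ctr, with the groups interleaved. Grem1 encodes gremlin 1, a secreted BMP antagonist made by fibroblasts and muscle cells below the crypts, on chromosome 2 from 113748674 to 113759317. It had 141, 57.1 and 18.2 CPM in PG_KO, against 197, 44.0 and 22.2 CPM in ctr. In both groups replicate 1 was far above the others, a spread of 7.78-fold within PG_KO and 8.88-fold within ctr.

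**Figure D1:**
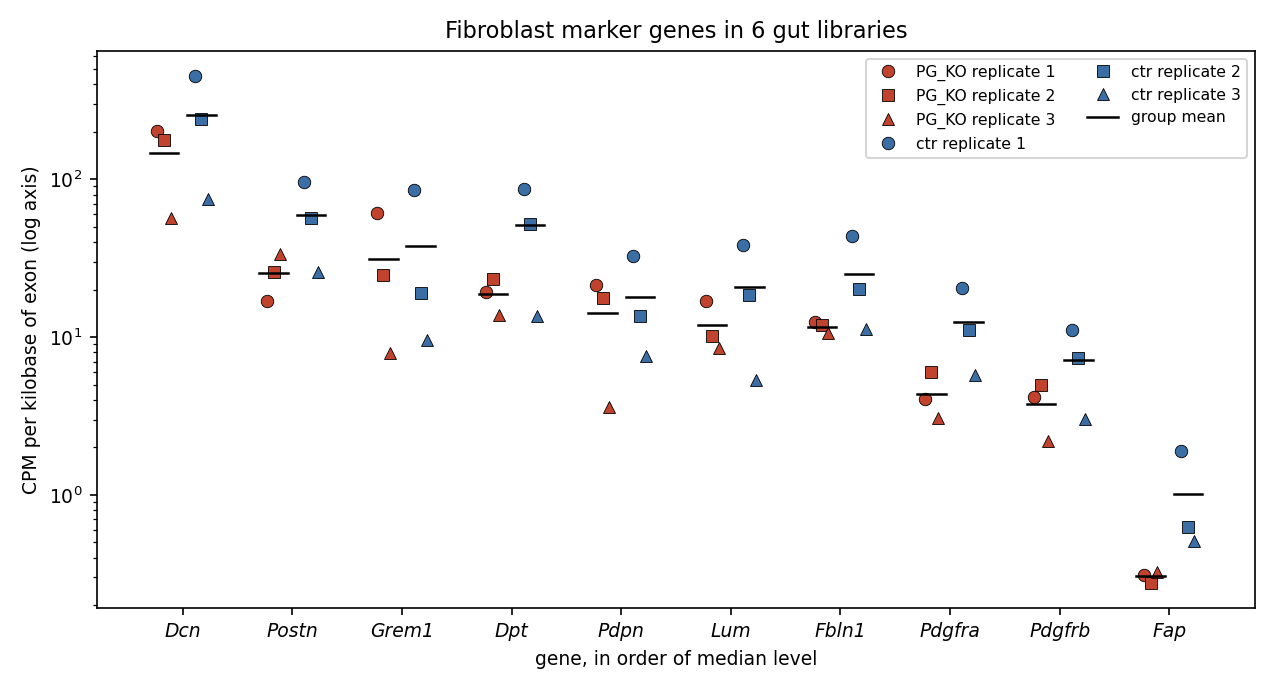
Level of each fibroblast marker gene in CPM per kilobase of exon (log axis) in the 3 PG_KO and 3 ctr gut libraries, 1 point per library with the marker shape giving the replicate and a line at each group mean. The replicate 1 point of ctr is the highest for every gene, and the groups are apart for Fap alone.

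Levels of different genes were compared per kilobase of exon. Dcn had a median of 190.0 CPM per kilobase over the 6 gut libraries (57.2 to 451) and held between 40.6% and 58.8% of the summed per-kilobase level of the 10 genes in every library. Postn (29.7), Grem1 (21.9), Dpt (21.4), Pdpn (15.6), Lum (13.5) and Fbln1 (12.2) followed by their medians in CPM per kilobase, and the ranges of neighbours in this order overlapped. The receptors came next, with medians of 5.89 CPM per kilobase for Pdgfra and 4.58 for Pdgfrb, whose ranges also overlapped. Fap was the lowest, with a median of 0.418 CPM per kilobase, and its range of 0.279 to 1.90 lay below that of Pdgfrb, 2.2 to 11.2.

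The make-up of the fibroblast RNA differed between libraries. Grem1 held 17.1%, 8.16% and 5.59% of the summed per-kilobase level in PG_KO, against 9.83%, 4.31% and 6.12% in ctr. Postn held 4.74%, 8.49% and 23.9% in PG_KO, against 11%, 12.9% and 16.4% in ctr. PG_KO replicate 1 thus had the largest share of Grem1 and the smallest of Postn, while PG_KO replicate 3 had the largest share of Postn, and the groups overlapped for both genes. Pdgfra held 1.13%, 1.99% and 2.17% in PG_KO, against 2.36%, 2.53% and 3.65% in ctr, which left the groups apart by a narrow gap. The shares of every other member overlapped between the groups, and how often such a gap arises by itself was not tested.

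**Figure D2:**
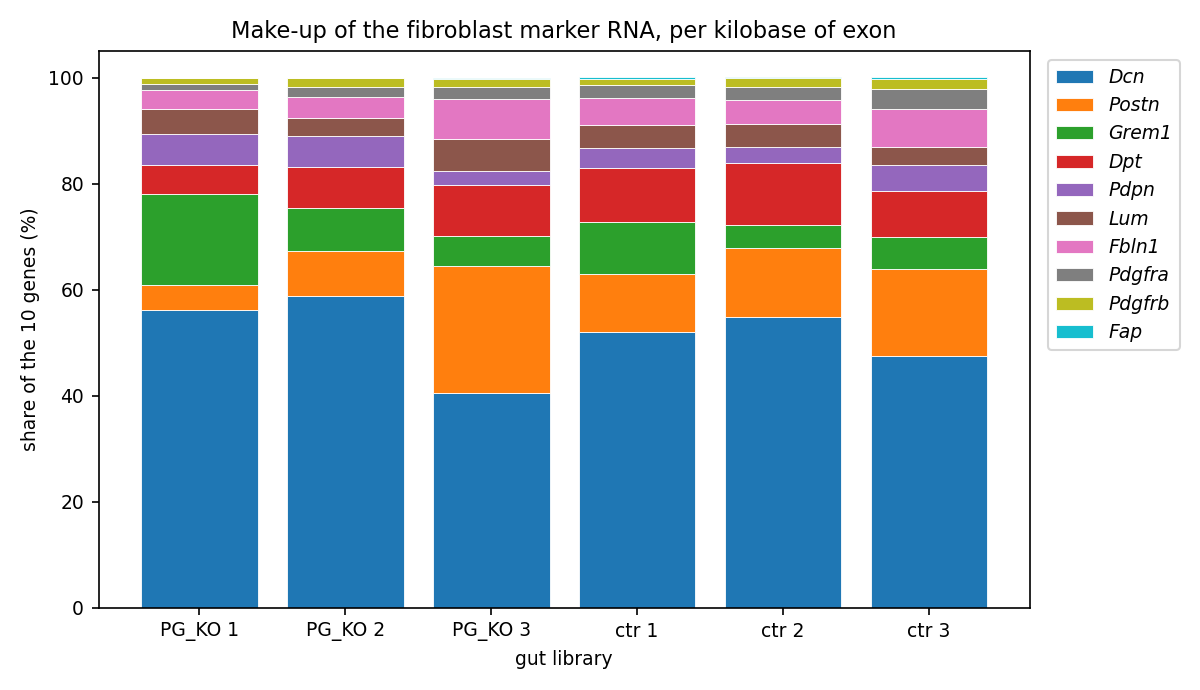
Share of each of the 10 genes in their summed CPM per kilobase of exon (percent) in each gut library, PG_KO libraries left of ctr libraries. Dcn takes between 40.6% and 58.8% everywhere, and the Postn share ranges from 4.74% in PG_KO replicate 1 to 23.9% in PG_KO replicate 3.

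The comparison of PG_KO with ctr gut called none of the 10 genes, and none of the 18043 tested genes (0.00%), at an adjusted p under 0.05 in edgeR. At an unadjusted p under 0.05, 5 of the 10 genes passed, all lower in PG_KO, where 9.72% of all tested genes did so with PG_KO lower (2705 of 18043 genes passed in either direction). All 10 fitted changes were below 0, as were 52.6% of those of all tested genes. The median log2 change was −0.98 over the 10 genes and −0.03 over all tested genes. DESeq2 called 435 genes and limma-voom called 0, and neither called any of the 10.

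In the fit of all 6 libraries the protease gene Fap had a log2 change of −1.69 (SE 0.56, unadjusted p = 0.0199, adjusted p = 0.330, edgeR). The receptor gene Pdgfra had −1.48 (SE 0.45, unadjusted p = 0.0144, adjusted p = 0.330). The matrix genes Dpt, Postn and Fbln1 had log2 changes of −1.40 (SE 0.59), −1.20 (SE 0.45) and −1.07 (SE 0.44), with adjusted p-values of 0.333, 0.330 and 0.331. The other 5 genes missed the unadjusted threshold too. Pdgfrb had −0.89 (SE 0.48), Dcn −0.76 (SE 0.69) and Lum −0.75 (SE 0.64). Pdpn, at −0.28 (SE 0.73), and Grem1, at −0.20 (SE 0.95), had errors several times their size.

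Single libraries moved these values. Among ctr libraries, replicate 3 had the lowest value of every one of the 10 genes. A downward shift of their changes without it is therefore built in and is no independent result. Without ctr replicate 3, edgeR called 1478 genes. Of the 10 members, 3 were called lower, where 5.91% of all tested genes were. These were Dpt with a log2 change of −1.81 (adjusted p = 0.0385), Postn with −1.52 (adjusted p = 0.0442) and Pdgfra with −1.78 (adjusted p = 0.0450). Without ctr replicate 1 the median of the 10 genes was −0.45, 7 were below 0, and Fap stood at −0.90 and Pdgfra at −0.96. Without ctr replicate 1 and PG_KO replicate 3 together it was −0.27, 6 genes were below 0, and Grem1 stood at 1.61, Pdpn at 0.89, Dcn at 0.27 and Lum at 0.20. Under that setting Fap, Pdgfra, Dpt, Postn, Fbln1 and Pdgfrb remained below 0, and no gene of the table was called (1248 at an unadjusted p under 0.05). The median over all tested genes was −0.01 there. Since both libraries were picked by their values of these 10 genes, the upward shift of the 10 was built in.

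**Figure D3:**
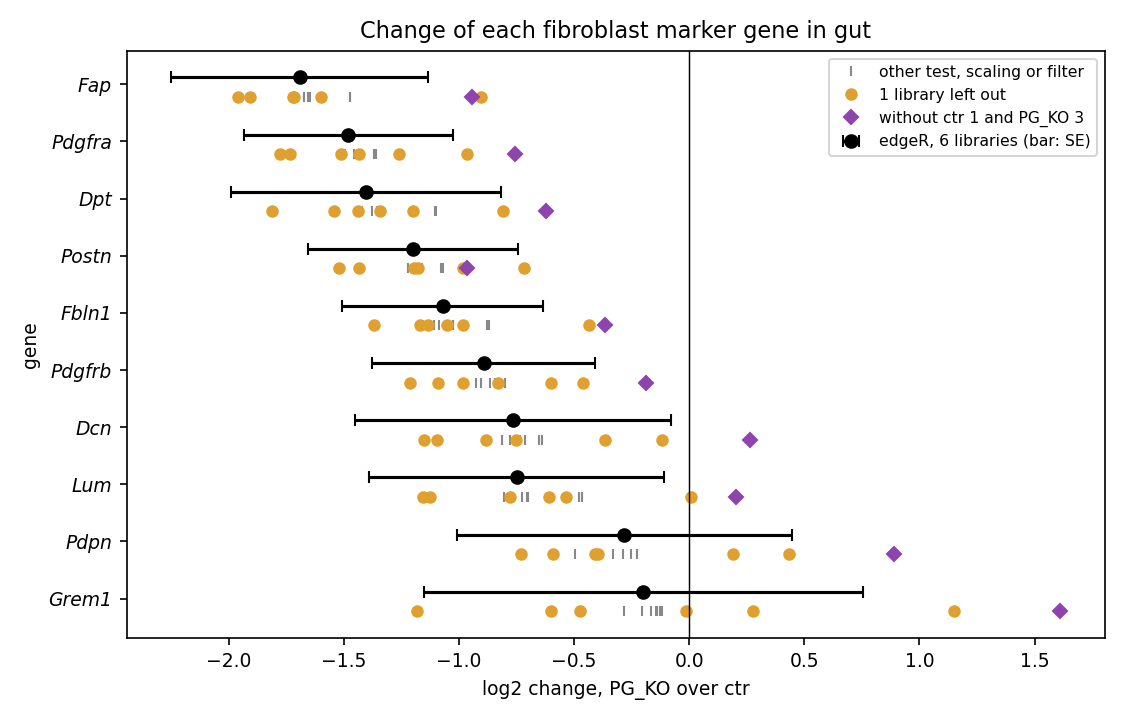
Fitted log2 change, PG_KO over ctr gut, of each fibroblast marker gene (black, bar: standard error), with its value under other tests, scalings and filters (grey ticks), with each library left out in turn (orange) and without ctr replicate 1 and PG_KO replicate 3 (purple). The 10 black points lie between −1.69 and −0.20, and the purple points of Dcn, Lum, Pdpn and Grem1 lie above 0. The libraries left out for the purple points were picked by their values of these genes, which shifts those points upward.

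How alike the 10 genes behaved was measured as the root-mean-square difference, over the 6 gut libraries, between the centred log2 CPM of a gene and the mean of the others. Pdgfrb was closest to the mean of its companions, at 0.214, followed by Fbln1 at 0.281 and Dpt at 0.323. Postn, at 0.652, and Grem1, at 0.844, were farthest, and the median over 14026 protein-coding candidates against the mean of the 10 was 0.859. The candidates most like the mean of the 10 were Pcdh7 (0.0730), Tfpi (0.0781), Rgl1 (0.0795), Foxf1 (0.0801), Rab7b (0.0874), Itga9 (0.0909), Qk (0.0914) and Stard8 (0.0953). Tfpi encodes an inhibitor of tissue factor, Foxf1 a transcription factor of gut mesenchyme and Itga9 an integrin subunit. These are descriptions over 6 libraries that share the large spread between ctr replicate 1 and PG_KO replicate 3.

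Genes related to the 10 were read from 10 further lists of 107 genes, of which 100 were tested in gut. Of these, 85 had a fitted change below 0 and 15 above, where 52.6% of all tested genes were below 0. At an unadjusted p under 0.05, 29 passed, all lower in PG_KO, as did 9.72% of all tested genes, and none was called. The median log2 change of the 100 genes was −0.98. Groups without overlap and with PG_KO lower made up 8.67% of all tested genes, a share to set beside the genes named below. Without ctr replicate 1 and PG_KO replicate 3, picked by their values of the 10 marker genes, 66 of 100 were below 0 with a median of −0.21. The median over all tested genes was −0.01 under that setting.

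Among kin of Dcn and Lum, all 7 tested small leucine-rich proteoglycans were lower in the fit and 4 passed the unadjusted p. Bgn, which encodes biglycan, had 84.0, 116 and 62.0 CPM in PG_KO, against 379, 208 and 115 CPM in ctr (log2 change −1.39, SE 0.43, adjusted p = 0.330). Aspn, which encodes asporin, had 1.87, 1.74 and 2.84 CPM in PG_KO, against 31.3, 9.49 and 2.22 CPM in ctr (log2 change −2.69, SE 0.86, adjusted p = 0.330). The groups overlapped for both genes, through PG_KO replicate 2 against ctr replicate 3 for Bgn and PG_KO replicate 3 against ctr replicate 3 for Aspn. All 7 fibulin family genes were lower, 2 of them at the unadjusted p. Of 14 genes of stromal matrix and mesenchyme all were lower and 7 passed the unadjusted p, led by the collagen VI genes Col6a2 (log2 change −1.62, SE 0.49) and Col6a1 (−1.61, SE 0.49). Matricellular kin of Postn were lower for 9 of 11, 1 at the unadjusted p. That gene, Sparcl1, had 41.8, 51.3 and 43.3 CPM in PG_KO, against 271, 175 and 34.5 CPM in ctr.

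The ligand genes of the receptors, read as a list of 5 with the receptor-like gene Pdgfrl, were all lower in the fit, 2 at the unadjusted p. Pdgfc had 4.44, 3.05 and 2.56 CPM in PG_KO, against 11.4, 6.98 and 7.27 CPM in ctr, without overlap (log2 change −1.32, SE 0.35, adjusted p = 0.330). Pdgfd had 1.41, 3.17 and 1.5 CPM in PG_KO, against 9.52, 6.73 and 3.06 CPM in ctr, with a small overlap. Of 14 BMP ligands and antagonists, the pathway of Grem1, 13 were lower and 6 passed the unadjusted p. The BMP antagonist gene Chrd had 19.5, 12.4 and 13.1 CPM in PG_KO, against 47.9, 23.8 and 18.9 CPM in ctr (log2 change −0.97, SE 0.38, adjusted p = 0.330).

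Fibroblast states of the gut wall were read from 4 of these lists. Organoids, which have no gut wall, also had reads of them, so the lists do not mark fibroblasts alone. The subepithelial list summed to 159 to 224 CPM in DMSO organoids, 101 to 297 in PG_KO and 126 to 470 in ctr gut. The crypt-base list summed to 789 to 1246, 385 to 899 and 483 to 1829 CPM in the same order. The adventitial list summed to 1381 to 1613, 2125 to 2926 and 2667 to 3348 CPM. Of 10 markers of subepithelial fibroblasts with high Pdgfra, 9 were lower and 3 passed the unadjusted p, with a median of −0.99. Wnt4, a Wnt ligand, had 5.04, 9.39 and 6.19 CPM in PG_KO, against 34.2, 20.1 and 10.03 CPM in ctr, without overlap (log2 change −1.62, SE 0.45, adjusted p = 0.330). Of 9 markers of crypt-base fibroblasts 7 were lower, 1 at the unadjusted p, with a median of −1.27. That gene was Rspo2, an amplifier of Wnt signals, at 0.317, 0.277 and 0.615 CPM in PG_KO, against 2.26, 0.776 and 0.650 CPM in ctr. Apart from ctr replicate 1 these levels were near the floor, since 3 reads corresponded to 0.103 to 0.129 CPM in gut. Cd81, with the next smallest p of the list, went the other way (log2 change 0.35, SE 0.17, adjusted p = 0.356, edgeR). It had 228, 289 and 248 CPM in PG_KO, against 231, 165 and 209 CPM in ctr, and the groups overlapped. All 9 adventitial markers were lower, 3 at the unadjusted p, with a median of −0.87. Clec3b, which encodes tetranectin, had 0.617, 1.19 and 1.5 CPM in PG_KO, against 14.9, 5.0 and 2.16 CPM in ctr, without overlap (log2 change −2.70, SE 0.74, adjusted p = 0.330).

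Genes of activated and inflammatory fibroblasts were split. Of 14 tested, 9 were higher and 5 lower in the fit, none passed the unadjusted p, and the median was 0.45. Thy1, a surface glycoprotein of fibroblasts and T cells, had the smallest p of the list, with 11.7, 13.5 and 9.95 CPM in PG_KO, against 35.7, 29.1 and 8.53 CPM in ctr (log2 change −1.03, SE 0.47, adjusted p = 0.349). Its lowest library was ctr replicate 3. Il11, a cytokine of activated fibroblasts, had 93.9, 37.8 and 2.46 CPM in PG_KO, against 14.3, 12.8 and 6.81 CPM in ctr (log2 change 2.05, SE 1.06, adjusted p = 0.371). The first 2 PG_KO libraries stood above all ctr libraries and the third below them. The summed level of the list was 1776, 1430 and 97.2 CPM in PG_KO, against 2389, 858 and 383 CPM in ctr. PG_KO replicate 3 was thus lowest here by a wider margin than for the 10 marker genes, whose sums were 842, 746 and 384 CPM in PG_KO, against 2190, 1126 and 431 CPM in ctr.

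Most markers of other cells of the gut wall also had fitted changes below 0, and none was called. All 10 smooth muscle genes were lower in the fit, 5 at the unadjusted p, with a median log2 change of −1.52. Their summed level was 676, 981 and 1307 CPM in PG_KO, against 4687, 3766 and 739 CPM in ctr. Here PG_KO replicate 3 was the highest PG_KO library, unlike for the fibroblast sum, and ctr replicate 3 was again low. Pericyte genes were lower for 6 of 7, 1 at the unadjusted p, with sums of 149 to 301 CPM in PG_KO and 144 to 857 CPM in ctr. Blood endothelium genes were lower for 10 of 10, 0 at the unadjusted p, with sums of 64.9 to 205 CPM in PG_KO and 99.9 to 496 CPM in ctr. Lymphatic genes, which bear on Pdpn, were lower for 6 of 6, 0 at the unadjusted p, with sums of 24.2 to 47.7 CPM in PG_KO and 14.5 to 163 CPM in ctr. Enteric glia and neuron genes were lower for 5 of 5 and 6 of 6, 1 of each at the unadjusted p.

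Immune markers were lower in the fit as well. At the unadjusted p these were 3 of 7 macrophage genes, 1 of 7 neutrophil genes, 2 of 6 B and plasma cell genes and 8 of 8 T and NK cell genes, and all of these lists had every gene below 0. The sum of the T and NK cell genes was 6.27 to 14.3 CPM in PG_KO and 18.8 to 43.4 CPM in ctr, without overlap. Markers of mesothelium were lower for 4 of 5 (0 at the unadjusted p), those of interstitial cells of Cajal for 2 of 3 (1 at the unadjusted p), and those of adipocytes for 0 of 2. Epithelial genes went the other way, with 10 of 10 higher in the fit, 1 at the unadjusted p, and a median of 0.28. Their sum was 15470 to 19730 CPM in PG_KO and 10150 to 16950 CPM in ctr, and was lowest in ctr replicate 1, where the fibroblast sum was highest. The part of wall and epithelial content in the fibroblast result was not tested.

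**Figure D4:**
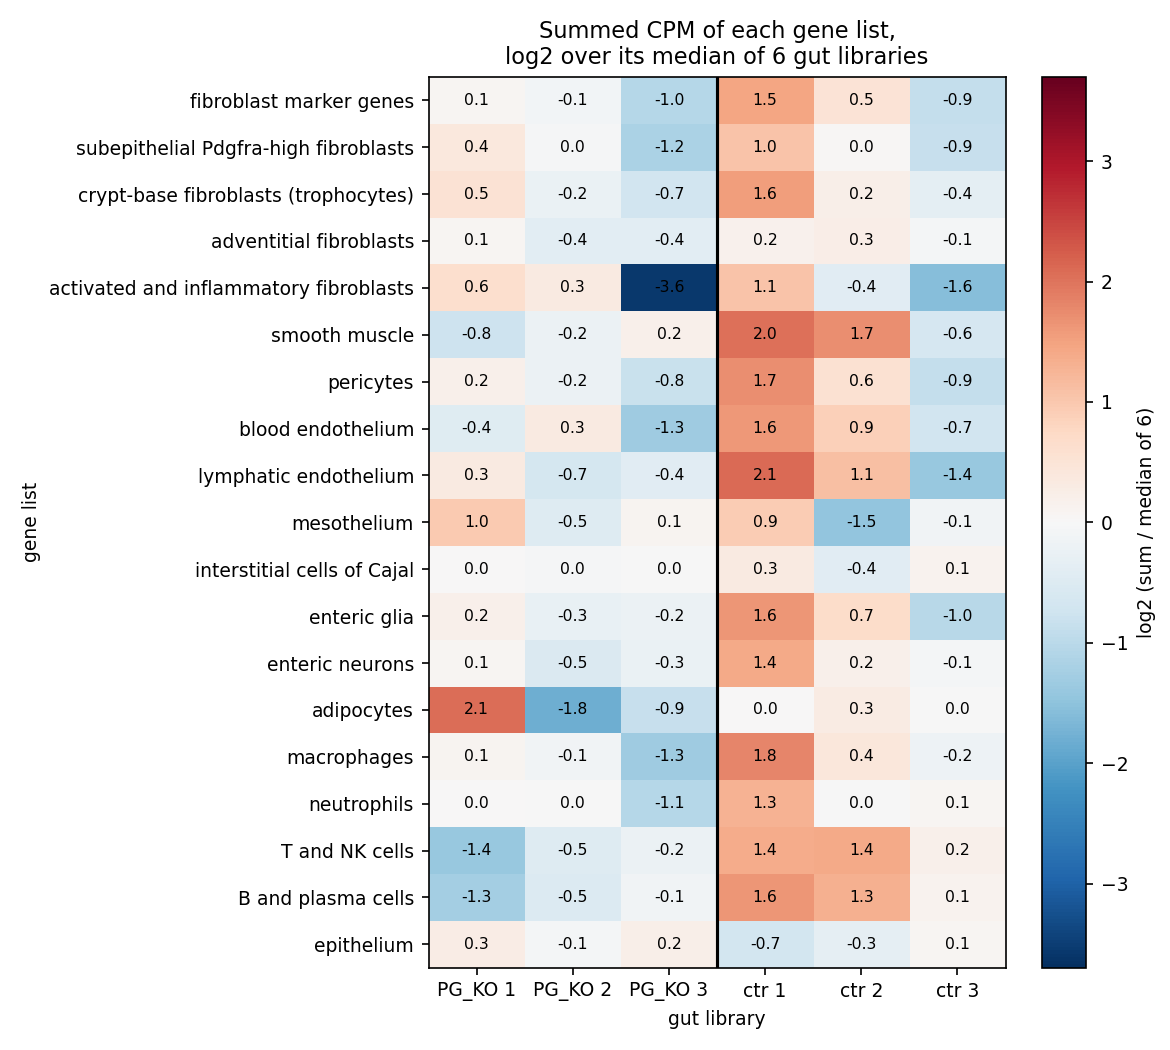
Summed CPM of the fibroblast marker genes, 4 lists of fibroblast states and 14 lists of other cell types in the 6 gut libraries, each as log2 over its own median of the 6, with red above and blue below. The fibroblast row is highest in ctr replicate 1 and lowest in PG_KO replicate 3, while the smooth muscle row is lowest in PG_KO replicate 1. The lists of fibroblast states also had reads in organoids.

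The organoids served as background. In the 9 libraries, 7 of the 10 genes (Dcn, Lum, Dpt, Postn, Pdgfra, Fap and Grem1) had 0 to 11 reads per library, up to 0.383 CPM, with 24 of 63 values at 0, and did not pass the low-count filter. The other 3, Fbln1, Pdgfrb and Pdpn, differed sharply between codes. Promoter sequences are shown for this reason. RefSeq windows of 250 bases before the gene start (GRCm38.p6) follow for Fbln1 (chr15:85205699-85205948, plus strand) and Pdpn (chr4:143299565-143299814, minus strand), with Dpt (chr1:164796413-164796662, plus strand) as a matrix gene with at most 2 reads in any organoid library. Pdgfrb is not shown. Sequences read 5′ to 3′ along the gene, and capitals mark the letters CACGTG, a form of E-box.
Fbln1: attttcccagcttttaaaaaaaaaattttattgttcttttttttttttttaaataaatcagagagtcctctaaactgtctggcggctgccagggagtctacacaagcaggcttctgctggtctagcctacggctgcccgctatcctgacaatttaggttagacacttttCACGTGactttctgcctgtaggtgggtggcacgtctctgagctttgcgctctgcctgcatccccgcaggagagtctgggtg
Pdpn: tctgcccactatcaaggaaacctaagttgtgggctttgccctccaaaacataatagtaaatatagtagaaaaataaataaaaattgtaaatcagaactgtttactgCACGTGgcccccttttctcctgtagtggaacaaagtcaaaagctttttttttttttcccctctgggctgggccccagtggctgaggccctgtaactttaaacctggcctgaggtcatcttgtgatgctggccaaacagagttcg
Dpt: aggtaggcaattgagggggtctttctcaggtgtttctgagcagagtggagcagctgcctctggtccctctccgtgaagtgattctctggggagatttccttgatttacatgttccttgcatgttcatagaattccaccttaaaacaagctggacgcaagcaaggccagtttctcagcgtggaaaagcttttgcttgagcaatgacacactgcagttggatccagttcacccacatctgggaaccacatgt
The TATA box (TATAAA), the CCAAT box, the GC box (GGGCGG) and the E-box form CACGTG were searched on both strands. So were the motif AGATAA that GATA factors bind and the motif TTTATG that caudal factors bind. CACGTG was added after the sequences were read, and other forms of E-box were not searched. CACGTG was found once in Fbln1 and once in Pdpn and not in Dpt, none of the other motifs was found in these 3 windows, and CACGTG occurs in 6.02% of 32851 windows of this length. CCAAT occurs in 33.8% of them, GGGCGG in 32.7%, TATAAA in 12.4%, TTTATG in 10.8% and AGATAA in 9.99%. The share of G and C was 46.4% for Fbln1, 43.2% for Pdpn and 48.8% for Dpt, against a median of 52.4%. Fbln1 and Pdpn share the motif and changed in opposite directions in organoids.

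Fbln1 had 6001, 6309 and 5904 reads in Tamoxifen organoids, against 27, 6 and 22 in DMSO and 16, 27 and 10 in nativ organoids. The mean was 206 ± 5.32 CPM in Tamoxifen, 0.624 ± 0.348 CPM in DMSO and 0.603 ± 0.302 CPM in nativ (SD, n = 3 each). All Tamoxifen libraries stood far above the rest, and the reads summed per group gave a ratio over DMSO of 319 (95% counting interval 245 to 423). The log2 change against DMSO was 8.26 (SE 0.31, adjusted p = 3.435e-09, edgeR). Tamoxifen libraries were much alike, with a chi-square per degree of freedom between pairs of 2.21 to 3.72. Within DMSO it was 29.6 to 57.4, and within nativ 7.99 to 105. Whether the Tamoxifen libraries came from separate cultures is not stated. The Tamoxifen level of 200.6 to 211 CPM exceeded the Fbln1 level of every gut library, the highest being 169 CPM, although these are levels from separately made tables.

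Pdgfrb had 74.5, 59 and 77 reads in Tamoxifen, against 0, 0 and 1 in DMSO and 0 in each nativ library. The ratio over DMSO was 202.5 with a wide counting interval (35.9 to 8018), and the level was at least 69.8-fold higher than in nativ, counting 3 reads over the group as the floor. The fitted log2 change against DMSO was 7.16 (SE 0.57, adjusted p = 5.985e-06, edgeR), a value that depends on the prior count. At 1.92 to 2.76 CPM, Pdgfrb in Tamoxifen stayed below the lowest gut library, at 13.4 CPM.

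Pdpn went the other way, with 0 reads in each Tamoxifen library, against 87, 49 and 42 in DMSO and 40, 28 and 65 in nativ. It was at least 61.7-fold lower in Tamoxifen than in DMSO and at least 44.6-fold lower than in nativ, by the same floor (fitted log2 change against DMSO −8.94, SE 0.90, adjusted p = 2.966e-05, edgeR). Tamoxifen against DMSO called 66.3% of 16449 tested genes, 33.9% higher and 32.4% lower, and among them these 3, 2 higher and 1 lower. That count is not read against the background, since Pdgfrb passed the low-count filter only through its Tamoxifen reads and Pdpn only through its DMSO and nativ reads. Between DMSO and nativ, which share the code T75, edgeR called none of these genes and 0.00% of all (2408 genes, 14.6%, at an unadjusted p under 0.05; DESeq2 called 138). There the log2 change of Pdpn was 0.43 (SE 0.36, adjusted p = 0.561) and that of Fbln1 0.03 (SE 0.43, adjusted p = 0.990).

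**Figure D5:**
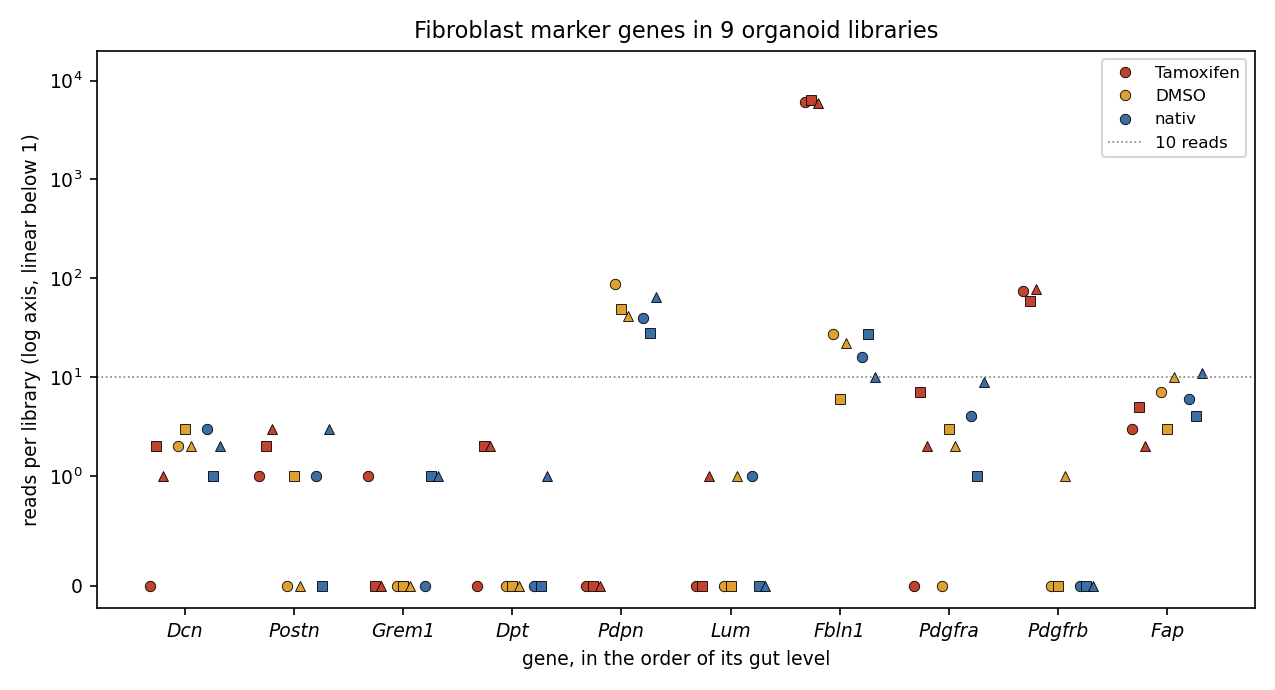
Reads of each fibroblast marker gene in the 9 organoid libraries (log axis, linear below 1), coloured by Tamoxifen, DMSO and nativ, with the marker shape giving the replicate and a dotted line at 10 reads. Fbln1 and Pdgfrb stand high in Tamoxifen only, Pdpn lies at 0 there and at 28 to 87 reads in DMSO and nativ, and the other 7 genes lie at or below 11 reads.

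Markers of other cells that express these 3 genes were read beside them. Of all tested genes, 33.9% were called higher and 32.4% lower in Tamoxifen than in DMSO, shares to set beside the counts below. Of the fibroblast collagens, Col1a2 had 0 to 2 reads per library in Tamoxifen and 0 to 2 in DMSO, Col3a1 had 3 to 4 in Tamoxifen and 1 to 4 in DMSO, and Col1a1 had 29 to 35 in Tamoxifen and 19 to 32 in DMSO. Vim, which encodes the mesenchymal filament protein vimentin, was higher in Tamoxifen, with 24 to 37 reads against 1 to 5 in DMSO (log2 change 3.15, SE 0.52, adjusted p = 3.349e-04, edgeR). It belongs to the list of stromal matrix and mesenchyme, of which 4 genes were tested, 1 called higher and 2 lower in Tamoxifen. Fn1 of that list averaged 1.15 CPM in Tamoxifen and 236 CPM in DMSO. The list summed to 3.51 to 3.9 CPM in Tamoxifen and 146 to 316 CPM in DMSO. Fn1 alone had 144 to 314 CPM in DMSO, so the sums differed through Fn1 and do not speak for the rest of the list. Of 8 pericyte markers, 4 were tested and 3 were called higher and 1 lower in Tamoxifen. Their sum was 67.5 to 69.5 CPM in Tamoxifen, 71.2 to 105 CPM in DMSO and 36.4 to 71.3 CPM in nativ, nearly all from Notch3 and Mcam. The 3 called higher were Mcam, Ndufa4l2, with 57 to 66 reads in Tamoxifen and 1 to 10 in DMSO, and Kcnj8, with 15 to 16 reads in Tamoxifen and 0 in every DMSO and nativ library. Of the others, Rgs5 had 2 to 7 reads in Tamoxifen and 0 to 1 in DMSO, Cspg4 0 to 2 in both, and Higd1b was at 0 in all 9 libraries.

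For Pdpn the lymphatic markers were read. Of 6, 4 were tested, and 1 was called higher and 3 lower in Tamoxifen. Their sum was 9.89 to 11.1 CPM in Tamoxifen, 52.4 to 67.9 CPM in DMSO and 31.6 to 56.8 CPM in nativ. Flt4, a receptor of lymphatic growth factors, averaged 0.194 CPM in Tamoxifen and 44.4 CPM in DMSO, while the lymphatic marker Lyve1 averaged 8.08 CPM in Tamoxifen and 0.292 CPM in DMSO, so that the list did not move one way. Ccl21a and Mmrn1 had at most 1 read per library in Tamoxifen and DMSO. Of 7 mesothelial markers, 3 were tested, and 2 were called higher and 1 lower in Tamoxifen. They summed to 62.9 to 73.3 CPM in Tamoxifen, 646 to 846 CPM in DMSO and 549 to 844 CPM in nativ, and the gene lower in Tamoxifen was Msln, at 54.7 CPM in Tamoxifen and 739.7 CPM in DMSO. Upk3b had 213 to 273 reads in Tamoxifen and 1 to 5 in DMSO, Upk1b had 98 to 137 in Tamoxifen and 0 to 2 in DMSO, and Wt1 had 0 to 1 in Tamoxifen and 0 in DMSO. The part of other cells in these differences was not tested.

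The rest of the fibulin family did not follow Fbln1 in organoids. Of 5 other family genes tested, 3 were called lower in Tamoxifen and 0 higher, where 32.4% of all tested genes were called lower. Efemp1, which encodes fibulin-3, averaged 1.28 ± 0.303 CPM in Tamoxifen and 114 ± 15.5 CPM in DMSO (log2 change −6.53, SE 0.20, adjusted p = 9.004e-10, edgeR). Fbln2, named after its values were seen, averaged 0.146 ± 0.0333 CPM in Tamoxifen and 100.4 ± 26.4 CPM in DMSO (log2 change −9.45, SE 0.39, adjusted p = 6.109e-09, edgeR), where n = 3 each. T41 organoids thus had reads almost only of Fbln1 among these 3 fibulins, and T75 organoids of Fbln2 and Efemp1. PDGF ligands were called lower in Tamoxifen for 3 of 4 tested genes, beside 32.4% of all tested genes, while Pdgfrb was higher. The ligand gene Pdgfa averaged 43.5 ± 1.31 CPM in Tamoxifen and 35.7 ± 8.82 CPM in DMSO, so the ligands did not all move one way.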

How the data were processed

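Values are the expected counts deposited by the authors, reads per gene not scaled between libraries, in 1 table for gut and 1 for organoids. Per the submitters' processing notes, reads were handled with STAR 2.7.2b, featureCounts 1.6.4, cutadapt 2.5, bcl2fastq 2.20.0.422 and DESeq2 on GRCm38.p6; the strand setting is not given in the sources used here. Per library, 10.4% to 13.7% of values are not whole, so shared reads were divided, and values were rounded for the fits. Antisense genes overlap Dpt (at most 8 reads in a library) and Postn (at most 5), and a microRNA gene lies in Pdgfra (at most 25). Per the labels, RNA integrity numbers were at least 7.7.

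Tests used edgeR 4.0.16 in R 4.3.3 (quasi-likelihood F, TMM factors, filterByExpr by group, robust), in 1 fit of 6 gut and 1 of 9 organoid libraries, with Benjamini-Hochberg adjustment over all tested genes. Standard errors are the absolute log2 change over the square root of F. Alternatives used DESeq2 1.42.0 and limma-voom (limma 3.58.1), other scalings and filters, and left-out libraries. The scripts were tested on simulated data. Likeness used log2 CPM with a prior count of 2 and a minimum mean of 1 CPM. Counting intervals and floors cover counting error only. Besides the 10 genes and Jup, the text names from each list tested in gut up to 2 genes with the smallest p there, the 8 genes most like the members, while genes of the lists named for organoids were picked after their values were seen. The genes and lists were chosen with earlier results of these data known. RefSeq held promoter windows for 6 of the 10 genes. Figures were drawn with matplotlib 3.10.9.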

Additional observations from a re-analysis of the deposited data

Results flagged for a closer look

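The change between Tamoxifen and DMSO organoids and that between PG_KO and ctr gut differed for the 3 members with enough organoid reads, by an interaction term of edgeR over 12 libraries together, chosen after the data were seen. The organoid change minus the gut change on the log2 scale was 9.40 for Fbln1 (SE 0.69, adjusted p = 3.281e-06), 8.12 for Pdgfrb (SE 1.06, adjusted p = 1.887e-04) and −8.61 for Pdpn (SE 2.09, adjusted p = 0.0112). A large organoid difference was a condition of entry for Pdgfrb and Pdpn, which passed the organoid filter only through Tamoxifen and only through DMSO and nativ, so their calls are descriptions. In this fit 36.4% of 19141 tested genes were called. All 3 calls held with RLE factors, with library totals and without a low-count filter. The sizes for Pdgfrb and Pdpn depend on the prior count, since a group had 0 or 1 reads. Each organoid group carries a single code, T41 or T75, while each gut library has its own, and the gut and organoid tables were made separately.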

How the results depend on the processing

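In gut, 128 values of single members under alternatives kept their direction and side of the threshold, 3 newly passed it and 9 changed sign, all of these with libraries left out. Without ctr replicate 3 the members passing were Pdgfra, Dpt and Postn. That library was the lowest of ctr for every member, so a downward shift was built in. Log2 changes above 0 were those of Dcn (0.27), Lum (0.20), Pdpn (0.89) and Grem1 (1.61) without both ctr replicate 1 and PG_KO replicate 3, where 6 members were below 0. Both libraries were picked by their values of these genes, so an upward shift was built in. Leaving out 1 library gave −1.16 to 0.007 for Lum, −0.73 to 0.43 for Pdpn and −1.18 to 1.15 for Grem1, above 0 for all 3 without ctr replicate 1 and for the last 2 without PG_KO replicate 3. Calls over all genes in gut were 435 with DESeq2, 5 without a low-count filter and 0 to 1478 with 1 library left out, and calls among members were 0 to 3 with 1 left out. With the replicate number as a block, 0 genes were called and the members' median was −0.84. Same-numbered gut libraries had correlations of their deviations of 0.289, −0.183 and 0.155, so the numbers were not taken as pairs. In organoids, all 42 values for Tamoxifen against DMSO kept their call, also with the block. For Pdgfrb and Pdpn this is a description, since they entered the main fit only through the groups where they were high. For DMSO against nativ, calls over all genes were 138 with DESeq2, 2 without a filter and 0 to 1 with 1 library left out. There Fbln1 was at −0.003 with limma-voom, at −0.014 with the 6 libraries compared, and at −0.31 to 0.56 with 1 library left out. On TMM sizes the Fbln1 mean in Tamoxifen was 197 CPM. The causes were not tested. Reads were fewest for Fap in gut, with 20 to 151, and for the 7 members at 0 to 11 reads in organoids.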
